A study of Homo sapiens with 4 samples.

Results

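The clustered protocadherin genes are 53 protein-coding genes that stand in 3 tandem arrays on the long arm of chromosome 5: 15 in the alpha cluster, 16 in the beta cluster and 22 in the gamma cluster. They were chosen by symbol and chromosome alone, out of 19974 protein-coding genes on chromosomes 1 to 22 and X. Histone marks at these genes were read from MHCC97L, an established cell line from a human hepatocellular carcinoma; the cells were untreated, labelled as wild type and grown with 10% serum. Chromatin immunoprecipitation with sequencing was done once for each of H3K4me3, a mark of active or poised promoters, H3K27ac, found at enhancers and promoters in use, and H3K4me1, found at enhancers and beside promoters. Input chromatin made up the last of the 4 samples and was not analysed here.

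Clustered protocadherins are adhesion proteins of the cadherin superfamily that bind copies of themselves on neighbouring cells. In the alpha and gamma clusters each gene has its own promoter and its own large first exon, which is spliced to constant exons shared by the whole cluster, so all genes of a cluster have the same far end. Beta genes have no shared constant exons. In neurons most of these promoters are switched on in a random few per cell, which gives neighbouring neurons different surface identities, and CTCF, cohesin and DNA methylation take part in the choice. The last members of the alpha and gamma clusters, PCDHAC1, PCDHAC2, PCDHGC3, PCDHGC4 and PCDHGC5, are called C-type genes, and several of them are expressed more evenly among mouse neurons. In several tumour types the clusters are known for long-range DNA methylation.

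The data are 3 lists of peak summits, positions 1 bp wide, each with a score by the authors, the −log10 of a p or q value. On the chromosomes analysed, the lists held 46078 H3K4me3, 70028 H3K27ac and 86366 H3K4me1 summits, and read depth is unknown. A score ranks summits within 1 list and is no signal that can be set against another mark. With 1 library per mark there is no replicate error, no test of a difference was possible, and Wilson intervals at 95% cover counting error only. The cells form a population, so a mark in few cells and a little mark in many cells cannot be told apart. The cell type label was checked by marks within 1000 bp of either gene boundary: of 8 hepatocyte markers, HNF4A had H3K4me3 with H3K27ac, while ALB, APOA2 and TTR had no summit. Of 5 epithelial markers, KRT8 and KRT18 had the same scores, H3K4me3 of 107 and H3K27ac of 93.1. The same summits may thus have been counted for both genes, which was not checked. KRT19 (4.68) and CDH1 (17.7) had H3K4me3 without H3K27ac, and EPCAM had no mark. None of 6 fibroblast markers had any mark, 1 of 4 leukocyte markers had H3K4me3 (CD14, at 7.26), and 1 of 4 endothelial markers had H3K4me3 (KDR, at 22.8). PECAM1, also endothelial, had H3K27ac of 43.9 and H3K4me1 of 6.84. Of 8 neuron markers, SYP, MAP2 and TUBB3 had H3K4me3 with H3K27ac, and STMN2 had H3K27ac of 2.77 and H3K4me1 of 4.43. By the same rule 56.8% of all protein-coding genes had H3K4me3, 47.9% had it with H3K27ac and 35.2% had no mark.

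The sequences before the starts show what the members share. Promoters of clustered protocadherins hold a conserved element with the letters CGCT at its core, and RefSeq promoter windows on GRCh38.p14, from 250 bases before to 50 bases after a start, were available for 47 of the 53 members. PCDHA3, PCDHA13, PCDHB6, PCDHB11, PCDHGA12 and PCDHGC5 had no entry. Stretches of 30 bases around CGCT, in capitals, are given 5′ to 3′ on the plus strand. These are from the 8 members with an entry and with an H3K4me3 summit at the start:
PCDHA2 at chr5:140794781-140794810: tttagccacatgatgtCGCTgtccaccata
PCDHA5 at chr5:140821542-140821571: ttcatccacatgatgtCGCTggacaccgga
PCDHB2 at chr5:141094544-141094573: aagagacgcggggtggCGCTgcagccttag
PCDHB5 at chr5:141135179-141135208: ttaggacgcctggtggCGCTgcaggctaag
PCDHB14 at chr5:141223263-141223292: tggagacacatggtggCGCTacaggataag
PCDHGB1 at chr5:141350025-141350054: gacaacctctgggcgcCGCTgtcgaccaaa
PCDHGA10 at chr5:141412931-141412960: ttaggactctgagcgcCGCTgttcacctac
PCDHGC3 at chr5:141475880-141475909: ctgggactctgtgtgcCGCTgtcggccaat

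The next stretches come from members with no summit of any mark at the start. PCDHA1, PCDHB13 and PCDHGA9 resemble marked members of their own clusters. PCDHAC1, PCDHB1, PCDHGB7 and PCDHGC4 are among those whose stretch was least like the rest of the cluster:
PCDHA1 at chr5:140786086-140786115: attggccacatgatgtCGCTgtacaccaca
PCDHB13 at chr5:141213865-141213894: tgaggacgcgtggtggCGCTgcaggataag
PCDHGA9 at chr5:141402714-141402743: ttaggactctgagcgcCGCTgttgatcaac
PCDHAC1 at chr5:140926220-140926249: gcctagaaggtgtggtCGCTcacgttcacc
PCDHB1 at chr5:141051274-141051303: gactggggagttgagtCGCTcaatgcaaat
PCDHGB7 at chr5:141417607-141417636: gccagtgcagagcaagCGCTgacgccgggg
PCDHGC4 at chr5:141484952-141484981: ggctgagcccgggagcCGCTgtctgccaat

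The letters CGCT were found in marked and unmarked members. On either strand, CGCT was present in 8 of 8 promoters with H3K4me3 and in 38 of 39 without, against 81.0% of 15813 protein-coding promoters, a high share for so short a word. The exception was PCDHA9. Longer forms of the element were chosen after the sequences had been read. GATGTCGCT stood in 9 of 13 alpha promoters and in no beta or gamma promoter, against 0.139% of all promoters. GGTGGCGCT stood in 13 of 14 beta promoters and in no alpha or gamma promoter, against 0.658% of all. A gamma form, CGCTGT and CCAA with 3 free bases between them, stood in 9 of 20 gamma promoters, 1 alpha and no beta promoter, against 0.101% of all. All 3 forms overlap CGCT. The shares of all promoters include the members from which the forms were read: 9 of 22, 13 of 104 and 10 of 16 promoters with the forms. With H3K4me3 the 3 forms were found in 2, 3 and 2 of 8 promoters, and without it in 7, 10 and 8 of 39. For CTCF, 1 strict word was searched: CCA, 2 free bases, AG, 2 free bases and GGC. It matched 1 of 47 member promoters, that of PCDHB9, where it overlaps CGCT, against 2.72% of all. CTCF sites with other letters are missed by this word, so promoters without it are not shown to lack a site. Binding of CTCF was not measured. TATAAA matched 6 of 47, none of them with H3K4me3, against 9.75% of all.

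The stretches were scored against the most frequent bases of their cluster, taken from promoters with a single CGCT on the plus strand: 9 of 13 in alpha, 9 of 14 in beta and 13 of 20 in gamma, most of the last A-type. Promoters with several CGCT, among them PCDHB2, PCDHB14, PCDHGB1, PCDHGC3, PCDHAC1 and PCDHB1, did not enter these bases and were given their best-matching stretch, while PCDHA2, PCDHA5, PCDHB5 and PCDHGA10 helped to set them. On this scale the stretch of PCDHA2 matched at 29 of 30 bases and that of PCDHGA10 at 29, the highest values of their clusters. PCDHB5 matched at 28, as did the unmarked PCDHB13. The unmarked PCDHAC1, PCDHB1 and PCDHGB7 matched at 13, 14 and 7 bases, and PCDHGC4 at 17. High and low likeness thus both occurred among promoters without a summit. The 8 with one matched at 20 to 29 bases, and most of those without one also matched at 20 or more. Every promoter with a stretch either helped to set the bases or was given its best stretch, which favours high values. The core lay at a median of 55 bp before the listed start in alpha, 61.5 bp in beta and 60 bp in gamma promoters, and began 3 bp inside the gene in PCDHB8.

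H3K4me3 marked a minority of the starts, and H3K27ac almost none. A summit of H3K4me3 lay within 1000 bp of the start of 9 of 53 members (17.0%, interval 9.20% to 29.2%), against 57.3% of 15819 protein-coding genes whose strand was known. H3K27ac lay as near to 1 of 53 (1.89%, interval 0.334% to 9.94%), against 54.6% of all. H3K4me1 lay near none (0%, interval 0% to 6.76%), against 5.62% of all, a share that lies within this interval. H3K4me3 together with H3K27ac was found at 1 member, PCDHB2 (1.89%), against 48.7% of all, and no mark at 44 of 53 (83.0%, interval 70.8% to 90.8%), against 35.7% of all. No summit lay within 1000 bp of more than 1 member start, and neighbouring starts were 3374 to 85119 bp apart.

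The counts were taken again with a wider window and with higher scores. With a window of 2500 bp, 9 members had H3K4me3, against 64.5% of all genes. In that window H3K27ac was at 1 member, against 58.2% of all, H3K4me1 at 0, against 16.6%, both H3K4me3 and H3K27ac at 1, against 56.3%, and no mark at 44, against 32% of all. With scores of at least 5 the member counts were again 9, 1, 0, 1 and 44, against 55.9%, 52.6%, 2.27%, 46.9% and 37.7% of all genes, in the same order. With scores of at least 10, H3K4me3 was at 8 members, against 53% of all, as PCDHB5 dropped out. H3K27ac was then at 1 member, against 47.4%, H3K4me1 at 0, against 0.335%, both at 1, against 41.8%, and no mark at 45, against 41.3%.

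**Figure D1:**
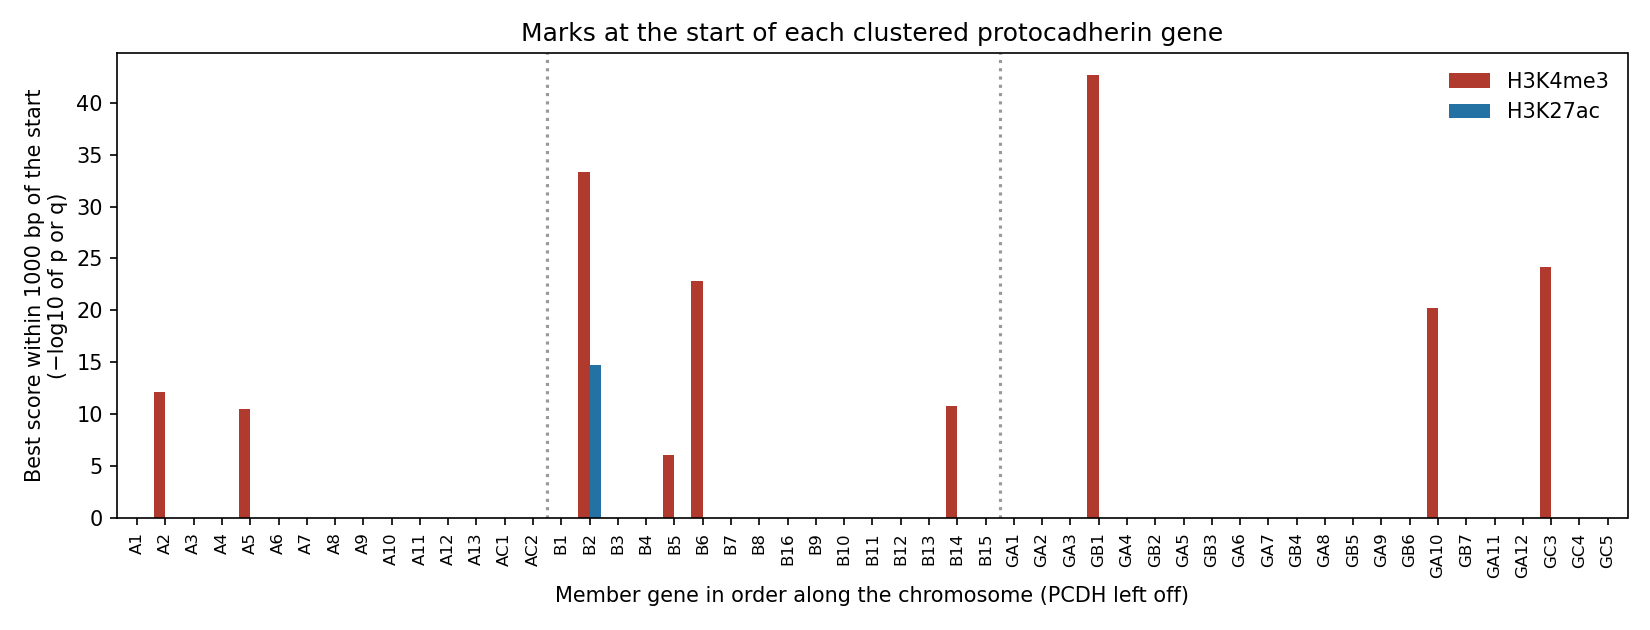
Best score (−log10 of p or q) of H3K4me3 (red) and H3K27ac (blue) within 1000 bp of the start of each of the 53 members, in order along the chromosome, with dotted lines between the alpha, beta and gamma clusters. A gap means no summit; 9 members have H3K4me3, 1 of them (PCDHB2) has H3K27ac, and no member has H3K4me1.

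In the alpha cluster, chr5:140786140-141012347, H3K4me3 was at 2 of 15 starts, both of alternate genes in its early part. PCDHA2 had a score of 12.1 at position 140795058, 206 bp inside the gene. PCDHA5 had 10.5 at position 140822030, 417 bp inside. Of all gene starts with H3K4me3, 9.16% had a lower score than PCDHA2 and 7.74% a lower one than PCDHA5. No summit of H3K27ac lay nearer to them than 75673 and 102434 bp. The starts without a mark were those of PCDHA1, PCDHA3, PCDHA4, PCDHA6 to PCDHA13 and the C-type genes PCDHAC1 and PCDHAC2. The sequence of the 250 bases before PCDHA2, the higher of the 2, is given with its CGCT in capitals.
PCDHA2 at chr5:140794602-140794851: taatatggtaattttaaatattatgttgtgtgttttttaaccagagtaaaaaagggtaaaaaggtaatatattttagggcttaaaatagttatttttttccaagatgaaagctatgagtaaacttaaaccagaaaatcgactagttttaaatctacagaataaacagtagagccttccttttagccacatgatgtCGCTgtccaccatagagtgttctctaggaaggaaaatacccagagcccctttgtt

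In the beta cluster, chr5:141051374-141249365, H3K4me3 was at 4 of 16 starts. PCDHB2 had the highest score of the cluster, 33.4, at position 141094768, 153 bp inside the gene. An H3K27ac summit of 14.7 lay 11 bp further on, the only one at a start in the 3 clusters. PCDHB5 had 6.08, the lowest value among the marked members, 331 bp inside the gene. PCDHB6 had 22.8, 352 bp inside, and PCDHB14 had 10.8, 416 bp inside. PCDHB5 and PCDHB6 are neighbours, while PCDHB14 stands apart, 73350 bp of summit-free sequence beyond the summit of PCDHB6. Without a mark were PCDHB1, PCDHB3, PCDHB4, PCDHB7 to PCDHB13, PCDHB15 and PCDHB16, the last of which stands between PCDHB8 and PCDHB9. The 250 bases before PCDHB2, the member with both marks, follow.
PCDHB2 at chr5:141094365-141094614: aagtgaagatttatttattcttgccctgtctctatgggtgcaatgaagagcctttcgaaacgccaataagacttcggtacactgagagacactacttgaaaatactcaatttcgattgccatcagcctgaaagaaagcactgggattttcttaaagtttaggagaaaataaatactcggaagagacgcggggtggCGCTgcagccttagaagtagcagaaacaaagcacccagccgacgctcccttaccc

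In the gamma cluster, chr5:141330514-141512975, H3K4me3 was at 3 of 22 starts, 1 in each of the A, B and C types. PCDHGB1 had the highest score of all members, 42.7, at position 141350206, 107 bp inside the gene. Even so, it stood above only 34.4% of all gene starts with H3K4me3. PCDHGA10 had 20.2, 356 bp inside the gene. PCDHGC3, a C-type gene, had 24.2, 301 bp inside, and the other C-type genes PCDHGC4 and PCDHGC5 had no mark. The remaining 11 of 12 A-type and 6 of 7 B-type starts had no mark either. No H3K27ac or H3K4me1 summit fell anywhere in this cluster. The sequences before PCDHGB1 and PCDHGC3 show an alternate and a C-type promoter side by side.
PCDHGB1 at chr5:141349849-141350098: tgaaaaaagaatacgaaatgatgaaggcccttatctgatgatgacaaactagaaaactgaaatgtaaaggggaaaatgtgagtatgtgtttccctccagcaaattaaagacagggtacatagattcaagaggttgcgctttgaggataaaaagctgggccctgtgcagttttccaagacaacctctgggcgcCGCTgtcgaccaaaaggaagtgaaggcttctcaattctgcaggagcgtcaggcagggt
PCDHGC3 at chr5:141475716-141475965: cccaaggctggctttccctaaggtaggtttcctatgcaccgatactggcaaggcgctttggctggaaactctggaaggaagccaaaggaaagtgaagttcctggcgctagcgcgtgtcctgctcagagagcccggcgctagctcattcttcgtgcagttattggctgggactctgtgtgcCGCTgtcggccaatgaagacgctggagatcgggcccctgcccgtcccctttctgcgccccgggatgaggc

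In all 9 marked members the H3K4me3 summit lay inside the gene; exon limits were not used here. The 9 summits lay 107 to 417 bp past the start, with a median of 331 bp. Among all 9059 genes with H3K4me3 at the start the median was 218 bp, 77.9% had the summit inside the gene and 37.6% had it between 107 and 417 bp. The far ends of the genes had no summit within 1000 bp, so the counts were the same when either boundary was allowed. The constant exons of alpha and gamma were not located. In alpha, summits of all 3 marks lay between 2008 and 10453 bp before the far end.

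**Figure D2:**
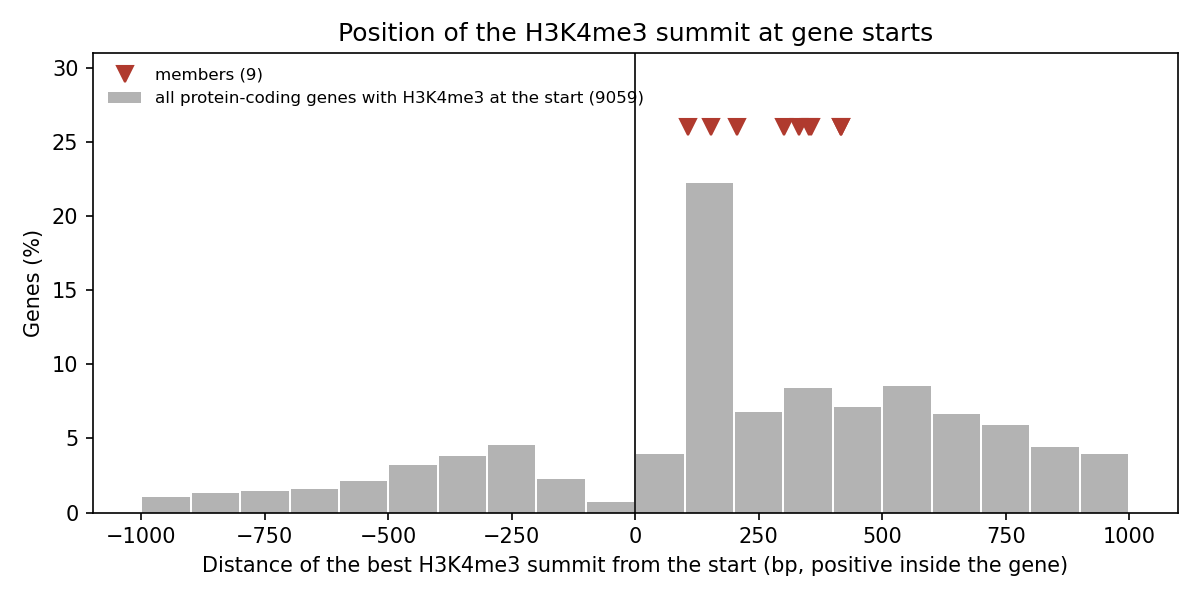
Distance in bp from gene start to the best H3K4me3 summit, positive inside the gene: triangles are the 9 marked members, set at 1 height for display, and grey bars give the percent of all 9059 protein-coding genes with H3K4me3 at the start, in steps of 100 bp. The members lie between 107 and 417 bp.

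Marked members had lower H3K4me3 scores than most marked genes, and 1 of them had H3K27ac. The 9 scores ranged from 6.08 to 42.7 with a median of 20.2, against a median of 53.4 over all 9059 marked genes. H3K27ac was present at 1 of the 9, against 85% of all genes with H3K4me3 at the start. H3K4me1 was at 0 of the 9, against 5.97% of all such genes. With 9 genes so low a share cannot be told from 0. Among the 2925 genes whose H3K4me3 score fell between 6.08 and 42.7, a range set after the members' values were seen, 66.4% had H3K27ac. For the 8 marked members without it, the nearest H3K27ac summit lay 23713 bp away at PCDHGB1 and 102434 bp away at PCDHA5, with a median of 65476 bp. Equal scores at distant places, such as the 24.2 at PCDHGC3 and in the alpha cluster, are common in the list: 95.9% of H3K4me3 scores occur more than once.

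Member promoters were poor in CpG, the dinucleotide that is methylated in vertebrate DNA and is dense at most promoters with H3K4me3. In the 300 bases the members had a median of 7 CpG (range 2 to 27), against 22 over all protein-coding promoters. Members with H3K4me3 had a median of 7 and those without it also 7. PCDHA2 with H3K4me3 had 3, and PCDHAC1 without it had 27, the highest. With 0 to 5 CpG, 3 of 13 members had H3K4me3, against 12.7% of all genes in that class. With 6 to 10 CpG it was 4 of 23 members, against 29.5% of all. With 11 to 20 CpG it was 1 of 9, PCDHGC3 with 18, against 61.7% of all, and above 20 it was 0 of 2, PCDHAC1 and PCDHGC4, against 76.9% of all. These windows end 50 bases past the start, before every summit of the members, and CpG in the exons was not counted.

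**Figure D3:**
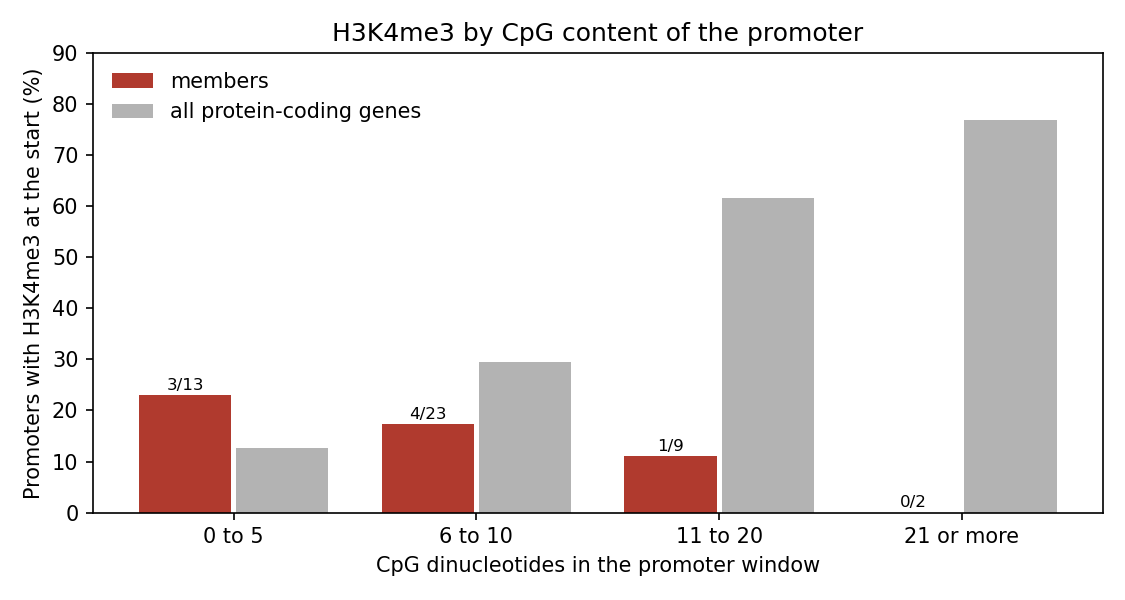
Percent of promoters with H3K4me3 within 1000 bp of the start (vertical axis), by number of CpG in the 300-base promoter window (horizontal axis), for the members (red, with counts) and for all protein-coding genes (grey). For all genes the percent is 12.7% in the lowest class and 76.9% in the highest; for the members it is 3 of 13 in the lowest and 0 of 2 in the highest.

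Away from the starts, summits stood at a handful of places. Across the 3 clusters there were 12 H3K4me3, 3 H3K27ac and 3 H3K4me1 summits in 607 kb. These counts, and the densities that follow, include the summits at member starts, 9 of H3K4me3 and 1 of H3K27ac. The density of H3K4me3 was 19.8 per Mb, 1.92 times that of chromosome 5 (exact Poisson interval 0.990 to 3.35). For H3K27ac it was 4.95 per Mb, 0.290 times chromosome 5 (0.0598 to 0.848), and for H3K4me1 also 4.95 per Mb, 0.299 times (0.0616 to 0.873). These intervals cover counting error only and treat summits as independent. The 3 H3K4me1 summits stand close together in the last part of the alpha cluster, so their interval is too narrow. With scores of at least 10 the ratio was 3.48 for H3K4me3 and 3.08 for H3K4me1, so the direction of the H3K4me1 ratio turned, with 1 summit left in the clusters. The 250 kb before the alpha cluster held 21 H3K4me3 and 18 H3K27ac summits, or 84 and 72 per Mb. The 250 kb after the gamma cluster held 9 and 13, or 36 and 52 per Mb. The nearest outer protein-coding genes, ZMAT2 and DIAPH1, had H3K4me3 at their starts with scores of 46.1 and 59.7.

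**Figure D4:**
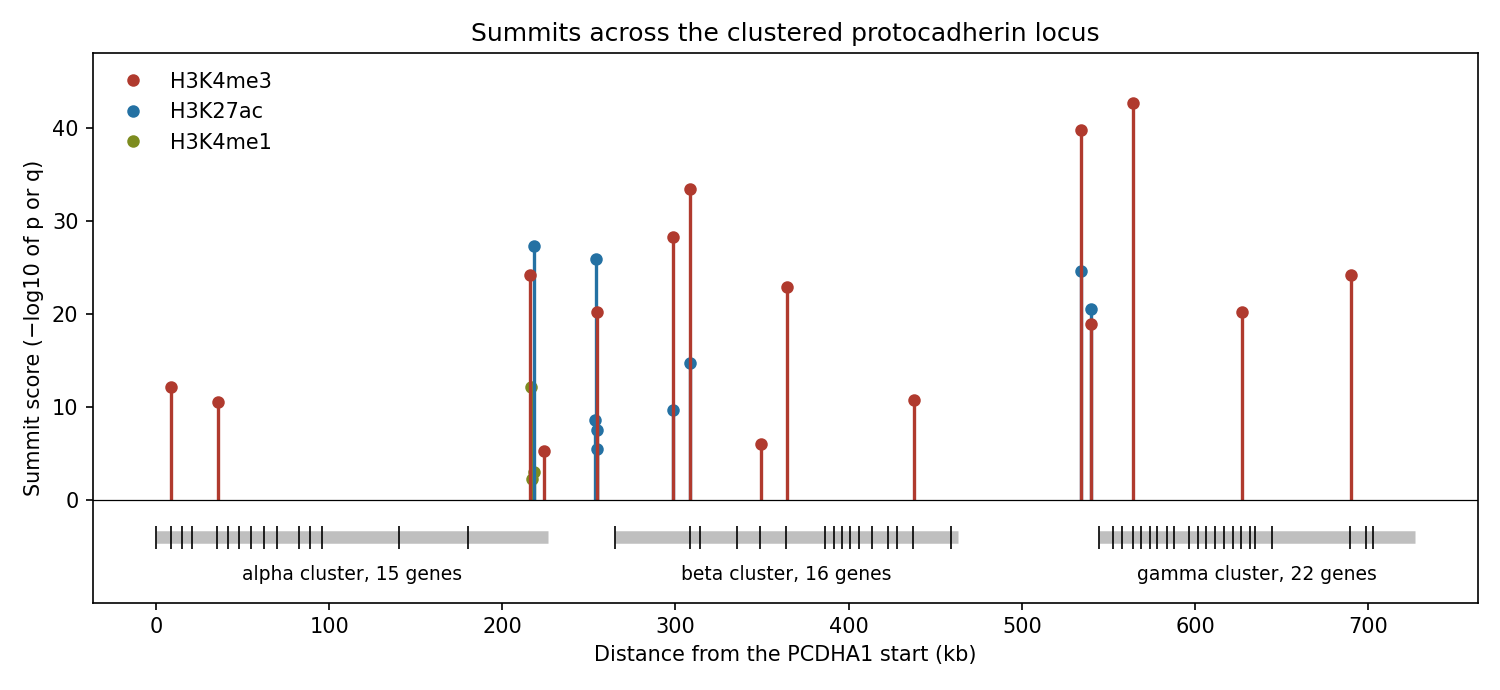
Score (−log10 of p or q) of every summit between the PCDHA1 start and the far end of the gamma cluster, against distance from the PCDHA1 start in kb, for H3K4me3 (red), H3K27ac (blue) and H3K4me1 (green). Grey bars are the clusters and black ticks the 53 starts; all 3 H3K4me1 summits lie near 217 kb, in the last part of the alpha cluster.

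The last part of the alpha cluster, past the PCDHAC2 start, was the one place with all 3 marks. H3K4me3 had a summit of 24.2 at position 141001894, which is 10453 bp before the far end of the cluster. H3K4me1 followed at 12.1, 2.28 and 3.01, the first of them 764 bp away. H3K27ac had a summit of 27.3 at position 141004648, 15 bp from the last H3K4me1 summit and 2754 bp from the H3K4me3 summit. A weak H3K4me3 summit of 5.30 lay 2008 bp before the far end. The member start nearest to any of these summits was that of PCDHAC2, 35418 bp away.

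Between the alpha and beta clusters, where no member starts, 4 H3K27ac summits stood between positions 141039449 and 141041076. They had scores of 8.58, 25.9, 5.52 and 7.53, and an H3K4me3 summit of 20.2 lay 118 bp from the nearest of them, at position 141040737. The group lay 10298 to 11925 bp before PCDHB1 and 5129 bp or more from the boundary of any annotated gene, the nearest being the lncRNA gene PCDHB1-AS1. In mouse, an enhancer called HS5-1 downstream of the alpha cluster drives alpha genes. No human coordinates of it were at hand, so no summit is assigned to it. Inside the beta cluster, H3K4me3 of 28.2 and H3K27ac of 9.67 stood 8 bp apart, 9841 bp before the PCDHB2 start and 6735 bp or more from any gene boundary.

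Between the beta and gamma clusters lie SLC25A2, a mitochondrial carrier gene, and TAF7, a gene of the general transcription factor TFIID. SLC25A2 had no summit at either boundary. TAF7 had H3K4me3 of 39.7 and H3K27ac of 24.5 at its start. A further pair, H3K4me3 of 18.9 and H3K27ac of 20.6 standing 33 bp apart, lay 4161 and 4128 bp before the PCDHGA1 start, which itself had no mark. Thus in the whole locus H3K27ac joined H3K4me3 within 1000 bp at 1 member start, at TAF7 and at 3 places that are no annotated start of a protein-coding gene. Of the 3 H3K27ac summits within cluster limits, 2 had H3K4me3 within 1000 bp (66.7%), against 42.5% of all H3K27ac summits, and 1 had H3K4me1 (33.3%), against 52.8%. With 3 summits these shares carry little weight.

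Long stretches of the clusters had no summit of any mark. The longest, 180 kb, ran from the summit of PCDHA5 to the last part of the alpha cluster and held 10 starts, PCDHA6 to PCDHAC2. On chromosome 5, 200 stretches were at least as long. Another of 63.1 kb in the gamma cluster held 11 starts, PCDHGA4 to PCDHGB6, and 1 of 73.4 kb in the beta cluster held 8, PCDHB7 to PCDHB13. Chromosome 5 had 558 and 499 stretches of at least these lengths. The starts inside are members already counted above as unmarked. Gene starts within the other stretches of chromosome 5 were not counted.

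The members are similar in sequence, and the sources used here do not say how reads that map to more than 1 place were treated. The longest run of identical bases shared by the promoter windows of 2 members was 78, between PCDHGB4 and PCDHGB5, followed by 55 between PCDHB8 and PCDHB13, all 4 unmarked. The 8 marked promoters shared at most 24 bases with another member, and the median was 18 over all 47. Shared sequence in the first exons, where the summits lie, was not measured, and its part in the missing summits was not tested.

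Other gene families give a scale for these counts, taken within 1000 bp of either boundary, where all protein-coding genes had H3K4me3 in 56.8%, H3K27ac in 54.1%, H3K4me1 in 12.4%, both H3K4me3 and H3K27ac in 47.9% and no mark in 35.2% of cases. By this rule the member counts were again 9, 1, 0, 1 and 44 of 53. The 12 non-clustered protocadherin genes, which encode related adhesion proteins from single loci, had H3K4me3 in 3 cases: PCDH9 (24.2, with H3K27ac of 11.9), PCDH1 (17.7) and PCDH11X (6.28). Their H3K27ac count was 2, PCDH9 and PCDH7. Of 10 cadherin genes with CDH symbols, 2 had H3K4me3. They were CDH2, the N-cadherin gene, at 75.9 with H3K27ac of 21.9, and CDH1, the E-cadherin gene, at 17.7 without H3K27ac. Among other genes in tandem arrays, H3K4me3 was found in 20 of 39 HOX genes (51.3%), 142 of 246 ZNF genes of chromosome 19 (57.7%) and 3 of 392 olfactory receptor genes (0.765%). With 17.0%, the clustered protocadherins stood between the olfactory receptor and HOX counts. H3K27ac was found in 41.0% of HOX, 49.2% of ZNF and 0.255% of olfactory receptor genes, against 1.89% here.

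**Figure D5:**
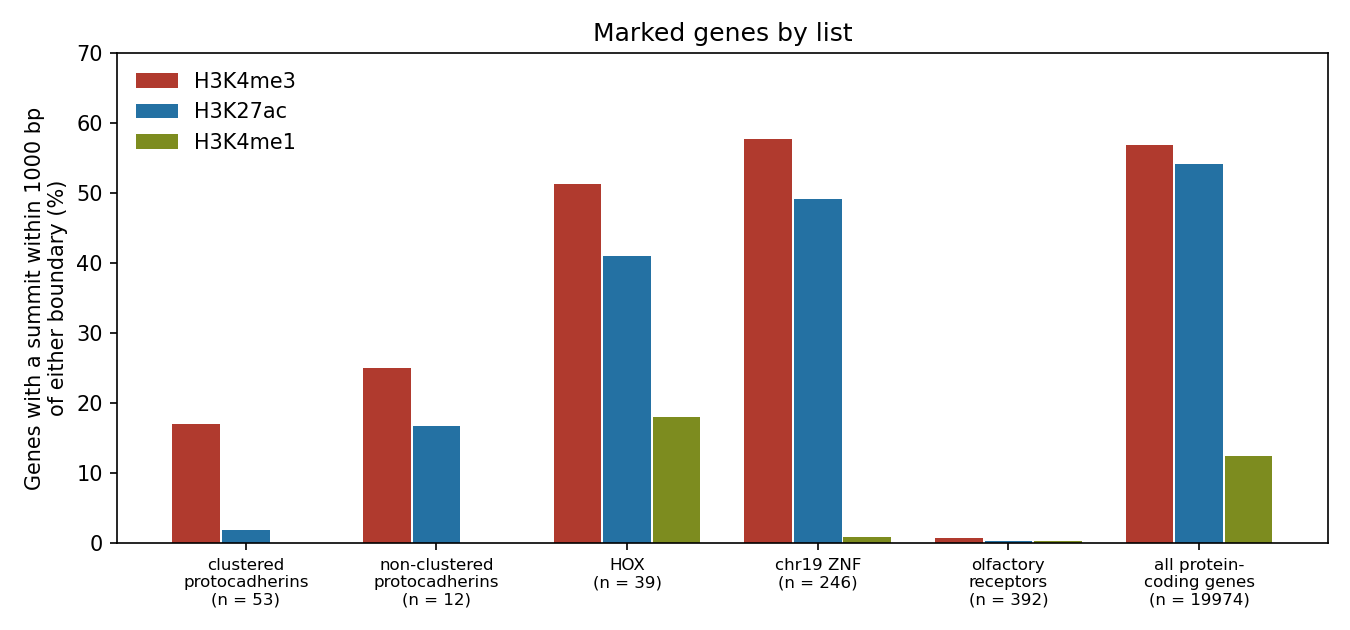
Percent of genes with a summit of H3K4me3 (red), H3K27ac (blue) or H3K4me1 (green) within 1000 bp of either gene boundary, for the clustered protocadherins, 4 other families and all protein-coding genes. The clustered protocadherins have 17.0% for H3K4me3 and 1.89% for H3K27ac, against 56.8% and 54.1% of all genes.

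Genes whose products are known to regulate the clusters were themselves marked. Of 14 such genes, 13 had H3K4me3 and 14 had H3K27ac, against 56.8% and 54.1% of all protein-coding genes. CTCF, whose protein binds the promoters and enhancers, had 35.3 for H3K4me3 and 62.2 for H3K27ac, and RAD21, a cohesin subunit gene, had 96.3 and 97.5. SMCHD1, which encodes a repressor of the clusters in mouse, had H3K27ac of 54.8 without H3K4me3 within 1000 bp. Of 9 genes for partners and processing of the proteins, 7 had H3K4me3 and 8 had H3K27ac. PTK2 and PTK2B, which encode the kinases FAK and PYK2 that bind clustered protocadherins, had H3K4me3 of 74.5 and 61.3 and H3K27ac of 86.0 and 5.52. CYFIP1, a gene of the WAVE actin-regulating complex, had H3K27ac of 14.6 alone, and FURIN, a proprotein convertase gene, had no mark.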

How the data were processed

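Histone marks were mapped by ChIP-seq in untreated MHCC97L cells, with 1 library for each of H3K4me3, H3K27ac and H3K4me1 and 1 of input. The deposited lists hold 1 bp summits, each scored by the authors with the −log10 of a p or q value, and their lowest scores match a threshold of 0.05. The build was hg38 and the tools were MACS2, deepTools, Picard and Bowtie, per the submitters' processing notes; the sources used here do not give versions, settings or whether the input served as control. Summits off chromosomes 1 to 22 and X were left out (185 H3K4me3, 273 H3K27ac, 61 H3K4me1). Read depth is unknown.

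Gene limits came from RefSeq on GRCh38.p14, which has the chromosome coordinates of hg38, and strands from its promoter table. All 47 members with an entry lay on the plus strand, and the 6 others were given that direction. The start is the gene's outer 5′ limit. In PCDHGB2 the promoter entry begins at a start inside this limit. A gene was counted for a mark if its start had a summit at most 1000 bp away. The script's gene calls were tested on simulated data. Python 3.11.15, pandas 2.3.3 and SciPy 1.17.1 were used.

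Members and lists were chosen with earlier results of these data known. All members with a summit at the start are named with values, then genes inside, between or next to the clusters and, from each list, at most the first 2 genes with both marks and the first 2 without H3K4me3. PCDH1, PCDH11X, CDH1, KRT19, TTR, TUBB3, STMN2, KDR and CD14 fall outside this rule and were named after their values were seen. The values of 1 marker are not reported here. Chromosome length was taken to the end of the last gene. A planned protein comparison was not run, since no protein sequences were used here. Alternatives were windows of 500 and 2500 bp, scores of at least 5 and 10, either boundary, nearest member only, wider clusters and other densities.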

Additional observations from a re-analysis of the deposited data

How the results depend on the processing

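The counts of members with each mark held under all 8 alternatives: H3K4me3 stayed between 8 and 9, H3K27ac at 1, H3K4me1 at 0 and no mark between 39 of 47 and 45 of 53. The lower H3K4me3 counts came with a score of at least 10, where PCDHB5 is lost, and with the 47 members that have a promoter entry, where PCDHB6 is left out. That last setting and the use of any listed start were chosen after seeing the data. Of 27 alternatives for the other results, 6 moved the value. With clusters extended by 10 kb, the H3K27ac summits were 7 in place of 3, since the 2 between beta and gamma and 2 past the far end of gamma were then included. With a score of at least 5 or of at least 10, the H3K4me1 summits were 1 in place of 3. With a score of at least 10, the density relative to chromosome 5 was 3.48 for H3K4me3 and 3.08 for H3K4me1, where 1 H3K4me1 summit is left in the clusters. At that score 0% of the H3K27ac summits had H3K4me1 nearby. No paired analysis was possible because each mark has 1 library. Leaving out a replicate was not possible either. Low sequencing depth, which is unknown here, can hide weak summits, so a start without one is not shown to lack the mark.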
